A study of Homo sapiens with 4 samples.

Results

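The 10 genes described here encode AP-1 subunits and other immediate early transcription factors and were taken by name: FOSL1, FOSL2, FOS and FOSB of the FOS family, JUN, JUNB and JUND of the JUN family, and ATF3, EGR1 and IER2. All 10 were found, each as 1 row, among the 29209 genes listed in every library. The material was polyA RNA of HaCaT, a spontaneously immortalised human keratinocyte line. The comparison set 2 libraries of a line made with lentivirus to overexpress TCN1 (TCN1_OE), a gene for a secreted vitamin B12 carrier, against 2 libraries of a negative control line (NC). It asks which transcripts differ in level between the line that overexpresses TCN1 and the control line. With a single line per group, overexpression of TCN1 cannot be told apart from other differences between the lines. Both lines were grown in DMEM with fetal bovine serum, and the labels describe no serum withdrawal and no acute stimulus. The sources used here do not give the promoter of the vector, what the control line carries, or whether either line is 1 clone. They also do not say that the 2 libraries of a line were grown separately, and the p-values below therefore cover a spread that may be technical.

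AP-1 is a dimer of basic leucine zipper (bZIP) proteins that binds DNA in gene promoters and enhancers. JUN proteins pair with each other or with FOS proteins, whereas FOS proteins need a JUN-type partner. Immediate early genes are transcribed within minutes of a growth factor, serum or stress signal without new protein synthesis, largely through MAP kinases acting on factors already bound to their promoters. FOS, FOSB, EGR1 and IER2 are classic members that respond briefly, while FOSL1 (which encodes FRA-1) and FOSL2 (FRA-2) are induced later and for longer. In epidermis AP-1 is known for controlling genes of differentiation, matrix proteases and inflammation.

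The 4 FOS genes and the 3 JUN genes are each alike in the part that encodes the DNA-binding and dimerisation region, and this part is shown because the results turn on telling FOSL1 from its relatives. A stretch of 72 bases (24 codons) was located as the window of highest summed amino-acid identity within each family, in GENCODE release 29 transcripts on GRCh38. In the FOS genes it lies in the conserved bZIP region and within the third exon of the transcript used, at chr11:65894044-65894115 (minus strand) in FOSL1, chr2:28408765-28408836 (plus strand) in FOSL2, chr14:75280566-75280637 (plus strand) in FOS and chr19:45471200-45471271 (plus strand) in FOSB. Capitals mark bases that differ from FOSL1 at the same position.
FOSL1: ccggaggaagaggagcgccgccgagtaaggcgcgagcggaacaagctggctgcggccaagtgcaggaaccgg
FOSL2: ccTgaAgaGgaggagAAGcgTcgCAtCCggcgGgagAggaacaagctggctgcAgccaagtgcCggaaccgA
FOS: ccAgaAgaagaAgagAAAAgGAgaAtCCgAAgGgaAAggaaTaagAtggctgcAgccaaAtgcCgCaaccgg
FOSB: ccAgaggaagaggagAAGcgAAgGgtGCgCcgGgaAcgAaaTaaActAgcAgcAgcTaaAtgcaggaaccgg
FOSL2 differed from FOSL1 at 16 of these 72 bases but at 2 of the 24 encoded amino acids, FOS at 23 bases and 3 amino acids, and FOSB at 20 bases and 1 amino acid. In the JUN genes, which have 1 exon each, the window lies at chr1:58782207-58782278 (minus strand) in JUN, chr19:12792612-12792683 (plus strand) in JUNB and chr19:18280573-18280644 (minus strand) in JUND, and capitals mark differences from JUN.
JUN: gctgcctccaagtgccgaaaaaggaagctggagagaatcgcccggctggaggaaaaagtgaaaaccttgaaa
JUNB: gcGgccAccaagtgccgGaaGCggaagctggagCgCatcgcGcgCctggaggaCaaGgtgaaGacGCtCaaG
JUND: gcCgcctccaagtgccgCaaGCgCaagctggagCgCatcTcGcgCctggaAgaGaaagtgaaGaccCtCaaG
JUNB and JUND each differed from JUN at 16 bases, and at 2 and 1 amino acids. Over whole transcripts, the longest exact run of bases shared by any 2 of the 10 genes was 20 bases, between JUN and JUNB, over the 45 pairs compared.

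Library totals were 16586500 and 14756073 counts in TCN1_OE and 19973550 and 11593377 counts in NC. TCN1 had 1700 and 1253 counts in TCN1_OE, against 50 and 17 counts in NC. The 8 basal keratinocyte markers, led by the keratin gene KRT14, summed to 6939 and 7696 FPKM (a count scaled by gene length and library total) in TCN1_OE and 6378 and 6978 FPKM in NC. The markers of fibroblasts (4 measured), melanocytes (5), endothelial cells (2) and leukocytes (5) summed to at most 3.06 FPKM per list in any library, and DCN, TYRP1, DCT, CD68, LYZ and CD207 had at most 3 counts in any library. Mitochondrially encoded genes took 6.04% and 5.65% of the counts in TCN1_OE and 5.33% and 5.13% in NC, and the part of that difference in the values below was not tested.

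**Figure D1:**
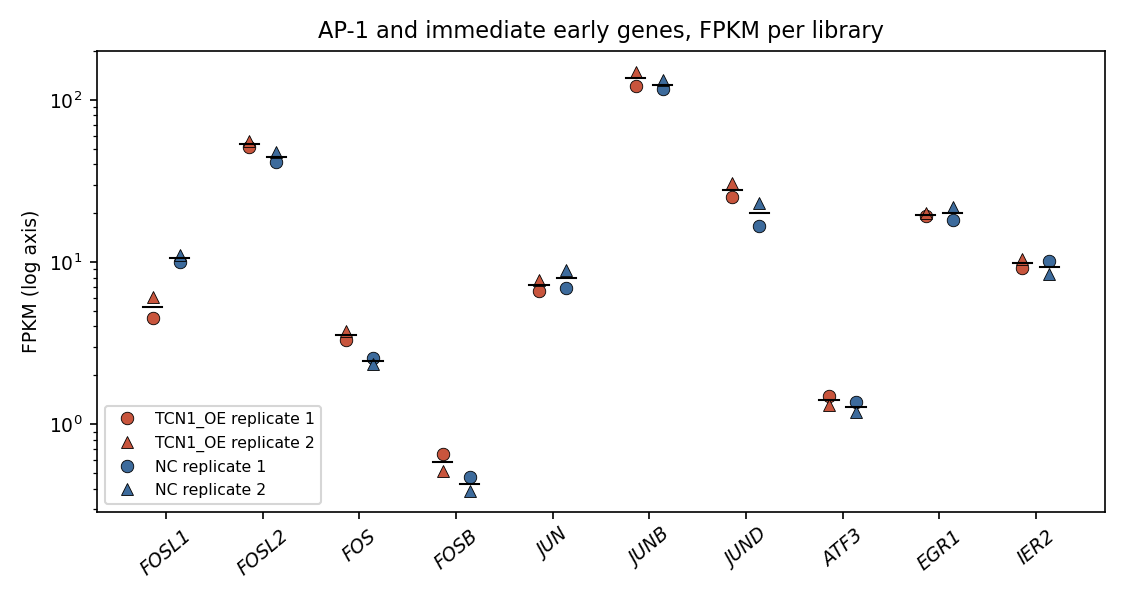
FPKM of the 10 genes in each library on a log axis, TCN1_OE on the left of each pair and NC on the right, with the mean of the 2 libraries as a bar. FOSL1 lies at 4.54 and 6.07 FPKM in TCN1_OE, below 10.0 and 11.1 FPKM in NC, while the points of JUN, JUNB, ATF3, EGR1 and IER2 overlap between the groups.

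The 10 genes differed widely in level per length, and FOSL1 held a lower place among them in TCN1_OE than in NC. JUNB, at 135.4 ± 19.2 FPKM in TCN1_OE and 124.2 ± 10.99 in NC (SD, n = 2 each), was the most abundant in both groups and FOSL2 the next. FOSB, at 0.582 ± 0.098 and 0.429 ± 0.057 FPKM in TCN1_OE and NC, was the least abundant, with ATF3 and then FOS above it. FOSL1 ranked 7 of the 10 in TCN1_OE and 5 in NC: in TCN1_OE both libraries lay below those of IER2 and JUN, while in NC its mean was above both and its libraries overlapped those of IER2. The order of the other 9 among themselves was the same in both groups, although JUND with EGR1 and IER2 with JUN overlapped in NC and not in TCN1_OE.

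No member passed the test over all genes. With the quasi-likelihood test of edgeR and Benjamini-Hochberg adjustment over 15113 genes tested (threshold 0.05), 0 of the 10 were called, against 0.496% of all genes tested (0.285% higher and 0.212% lower in TCN1_OE). At an unadjusted p under 0.05 there were 3 members higher and 1 lower, against 6.00% and 6.81% of all genes tested. DESeq2 called 1 member, FOSL1, against 1.83% of all genes it adjusted. Limma on log2(FPKM + 0.5) called 0 members, and 1 gene over all genes. Scaled for library total and composition (TMM), the counts of the groups did not overlap for 5 members, 4 higher (FOSL2, FOS, FOSB and JUND) and 1 lower (FOSL1) in TCN1_OE, against 43.0% of all genes tested (21.2% higher and 21.8% lower). The median log2 fold change of the 10 was 0.12, beside 0.0016 over all genes tested.

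**Figure D2:**
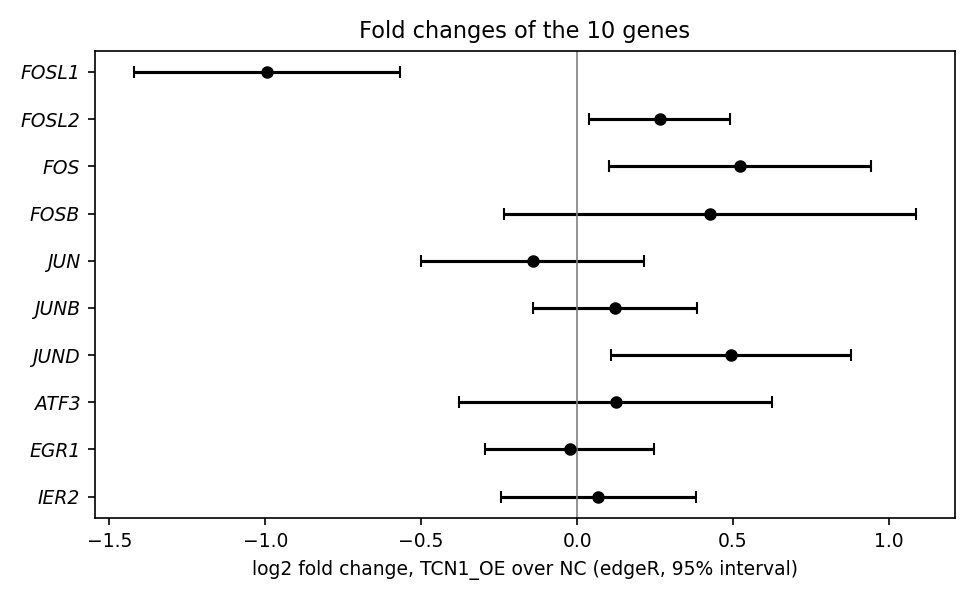
Log2 fold change of each gene, TCN1_OE over NC, as a point with its 95% interval from the edgeR fit. FOSL1 stands at -0.99 with an interval of -1.42 to -0.57, apart from the intervals of the other 9 genes, and the intervals of FOSL2, FOS and JUND lie above 0.

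FOSL1 (ENSG00000175592, chromosome 11, 65892049 to 65900573 on the minus strand of GRCh38, 4 exon blocks) encodes FRA-1, which lacks the transactivation domain of FOS and is regulated by ERK signalling both in transcription and in protein stability. It had 142 and 169 counts in TCN1_OE, against 378 and 242 in NC, or 4.54 and 6.07 FPKM against 10.0 and 11.1 FPKM. Both TCN1_OE libraries were low and both NC libraries high, with no overlap. The mean was 5.30 ± 1.08 FPKM in TCN1_OE and 10.5 ± 0.73 in NC (SD, n = 2 each), and the gap between the means was 4.84 times the larger SD. The log2 fold change was -0.99 ± 0.19 (SE, 95% interval -1.42 to -0.57), 1.99-fold lower in TCN1_OE, with an edgeR p of 4.3e-04 and an adjusted p of 0.0568, just short of the threshold. Of all genes tested 0.946% had a log2 fold change as low or lower. The call depended on the tool: DESeq2 gave an adjusted p of 0.0038 and limma on log2(FPKM + 0.5) gave 0.175. Leaving out any 1 library gave log2 fold changes between -1.23 and -0.79. Such fits called more genes over the whole set than the fit to all libraries, so a call in them is not read as support. As in any bulk sample, fewer cells that express the gene and less RNA per cell cannot be told apart.

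FOSL2 (ENSG00000075426, chromosome 2, 28392448 to 28417312, plus strand), the closest relative of FOSL1 in the order of induction, stood on the other side of 0. It had 51.1 and 55.9 FPKM in TCN1_OE, against 41.2 and 47.6 FPKM in NC. Both TCN1_OE libraries were above both NC libraries, but the gap between the groups was smaller than the difference between the NC libraries. The log2 fold change was 0.26 ± 0.10 (95% interval 0.038 to 0.49), with an edgeR p of 0.0267 and an adjusted p of 0.306. Without NC replicate 1 it was 0.16, with an edgeR adjusted p of 0.790. With at least 3956 counts in each library its counting error was at most 1.59%, so the spread between libraries, not depth, set its precision.

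FOS (ENSG00000170345, chromosome 14, 75278774 to 75282230), the prototype of the family, was low in all libraries. It had 3.31 and 3.76 FPKM in TCN1_OE, against 2.55 and 2.36 FPKM in NC, from 175 and 177 counts against 162 and 87. The groups did not overlap, and the log2 fold change was 0.52 ± 0.19 (95% interval 0.10 to 0.94) with an edgeR p of 0.0202 and an adjusted p of 0.277. FOSB (ENSG00000125740, chromosome 19, 45467995 to 45475179) had 0.651 and 0.513 FPKM in TCN1_OE, against 0.469 and 0.388 FPKM in NC. Its groups did not overlap either, but with 60 and 42 counts in TCN1_OE and 52 and 25 in NC the counting error reached 20.0%. The log2 fold change of 0.43 ± 0.30 (95% interval -0.23 to 1.09, edgeR adjusted p 0.599) was not called, and it was 0.25 without TCN1_OE replicate 1.

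The make-up of the FOS family differed between the groups, while its summed level overlapped. FOSL1 made up 7.62% and 9.16% of the summed FPKM of the 4 FOS genes in TCN1_OE, against 18.5% and 18.0% in NC. FOSL2 made up 85.7% and 84.4% in TCN1_OE, against 76.0% and 77.5% in NC, and FOS 5.56% and 5.68% against 4.69% and 3.83%. The groups did not overlap in these 3 shares. They did overlap in the FOSB share, at 1.09% and 0.774% in TCN1_OE against 0.864% and 0.632% in NC. The shares of the 4 genes are bound to each other because they sum to a whole. The summed level was 59.6 and 66.3 FPKM in TCN1_OE and 54.3 and 61.5 FPKM in NC. This was not particular to the FOS family. None of the shares of JUN, JUNB and JUND overlapped between the groups either. JUN made up 4.30% and 4.13% of the JUN genes in TCN1_OE, against 4.96% and 5.44% in NC. JUNB made up 79.3% and 79.5%, against 83.2% and 80.4%. The summed JUN level overlapped too, at 153.6 and 187.4 FPKM in TCN1_OE and 140.0 and 164.2 FPKM in NC.

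**Figure D3:**
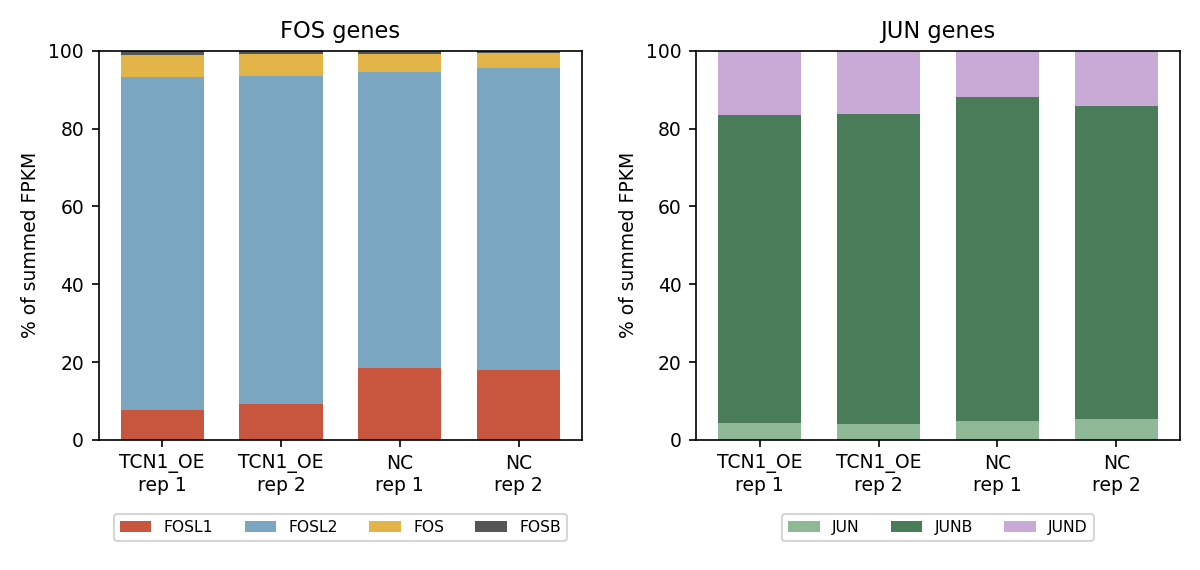
Share of each gene in the summed FPKM of the 4 FOS genes (left) and of the 3 JUN genes (right), one bar per library, TCN1_OE before NC. The FOSL1 share is 7.62% and 9.16% in TCN1_OE against 18.5% and 18.0% in NC, and JUNB makes up 79.3% to 83.2% of the JUN genes in all 4 libraries.

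The contrast of FOSL1 with FOSL2 and with the JUN genes was taken as a ratio of FPKM within each library, which needs no scaling between libraries. FOSL1 stood at 8.89% and 10.9% of FOSL2 in TCN1_OE, against 24.3% and 23.2% in NC. The groups were well apart, by 1.10 on the log2 scale at their nearest libraries. The mean log2 ratio was -3.35 ± 0.20 in TCN1_OE and -2.07 ± 0.05 in NC (SD, n = 2 each), a difference of -1.27, or a 2.42-fold lower ratio in TCN1_OE. The difference of the edgeR log2 fold changes of FOSL1 and FOSL2 was -1.26 ± 0.22, with the standard errors combined as if independent.

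Against the JUN genes the ratio moved in the same direction in every case. FOSL1 stood at 68.7% and 78.4% of JUN in TCN1_OE, against 144.3% and 123.9% in NC, so that FOSL1 was below JUN in both TCN1_OE libraries and above it in both NC libraries. Its ratio to JUNB was 3.72% and 4.07% in TCN1_OE, against 8.61% and 8.38% in NC. Its ratio to JUND was 18.0% and 19.8% in TCN1_OE, against 60.4% and 47.6% in NC, the widest gap of the 3, with a log2 difference of -1.51 beside -0.87 for JUN and -1.13 for JUNB. Relative to the 3 JUN genes summed, FOSL1 stood at 2.95% and 3.24% in TCN1_OE, against 7.16% and 6.74% in NC, a log2 difference of -1.17. Its ratios to FOS and FOSB were lower too, by -1.53 and -1.44 on the log2 scale. In none of the 7 ratios did the groups overlap, but they share FOSL1 and are not independent of each other. An exact two-sided permutation test over the libraries gave p = 0.333 for each, also after adjustment over the 7, which is the smallest p that 2 against 2 allows.

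**Figure D4:**
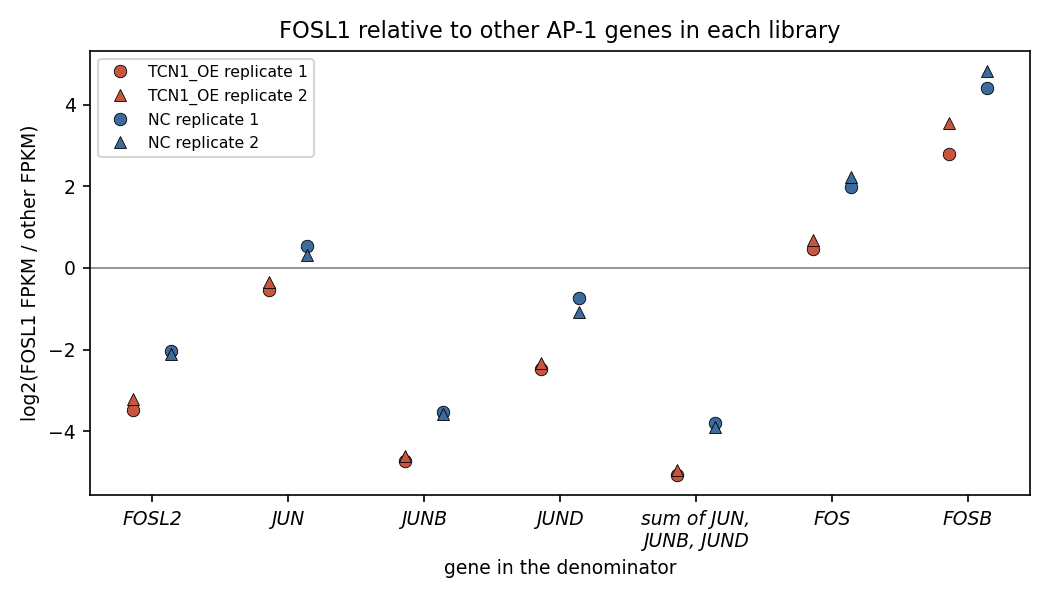
Log2 ratio of FOSL1 FPKM to the FPKM of each other AP-1 gene, and to the 3 JUN genes summed, within each library, TCN1_OE left of NC. Every TCN1_OE point lies below both NC points of the same ratio, with FOSL1 to JUN crossing 0, the line of equal level.

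The JUN genes, whose products are the obligate partners of FOS proteins, lay on both sides of 0, and none was called. JUN (ENSG00000177606, chromosome 1, 58780788 to 58784327), the strongest activator of the 3, had 6.60 and 7.74 FPKM in TCN1_OE, against 6.95 and 8.93 FPKM in NC, with overlapping groups. Its log2 fold change was -0.14 ± 0.16 (95% interval -0.50 to 0.22, edgeR adjusted p 0.766), and 0.047 without NC replicate 2. JUNB (ENSG00000171223, chromosome 19, 12791496 to 12793315), often an antagonist of JUN and well expressed in epidermis, had 121.8 and 149.0 FPKM in TCN1_OE, against 116.4 and 132.0 FPKM in NC. These overlapped as well, at 0.12 ± 0.12 (95% interval -0.14 to 0.38, edgeR adjusted p 0.725), and -0.047 without TCN1_OE replicate 2. Exons of HOOK2 overlap 14.2% of the exonic bases of JUNB, and the library kit does not mark strand, so some of these counts are uncertain.

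JUND (ENSG00000130522, chromosome 19, 18279760 to 18281622), the JUN gene that is usually expressed steadily and linked with quiescence and differentiation, was the highest of the 3 in fold change. It had 25.2 and 30.7 FPKM in TCN1_OE, against 16.6 and 23.3 FPKM in NC. The groups did not overlap, but the NC libraries differed from each other by more than the gap between the groups. The log2 fold change was 0.49 ± 0.17 (95% interval 0.11 to 0.88), with an edgeR p of 0.0169 and an adjusted p of 0.260. The size of this value, not its sign, depended on single libraries. Leaving out NC replicate 1 gave 0.25 and leaving out TCN1_OE replicate 2 gave 0.33. Leaving out NC replicate 2 gave 0.75 and leaving out TCN1_OE replicate 1 gave 0.64. JUND made up 16.4% of the summed JUN FPKM in both TCN1_OE libraries, against 11.9% and 14.2% in NC. The summed FPKM of the JUN genes was 2.58 and 2.83 times that of the FOS genes in TCN1_OE and 2.58 and 2.67 times in NC, with overlapping groups.

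ATF3, EGR1 and IER2 overlapped between the groups, and the sign of EGR1 and IER2 turned when single libraries were left out. ATF3 (ENSG00000162772, chromosome 1, 212565334 to 212620777), a stress-induced bZIP factor that can pair with JUN proteins, had 1.49 and 1.31 FPKM in TCN1_OE, against 1.36 and 1.19 FPKM in NC. Its log2 fold change was 0.12 ± 0.22 (95% interval -0.38 to 0.63, edgeR adjusted p 0.871), and it ran from 0.031 to 0.23 when single libraries were left out. EGR1 (ENSG00000120738, chromosome 5, 138465490 to 138469315), a zinc finger factor that is a standard readout of recent ERK and serum response factor activity, had 19.2 and 20.0 FPKM in TCN1_OE, against 18.1 and 21.7 FPKM in NC. The TCN1_OE libraries lay between the NC libraries, at -0.024 ± 0.12 (95% interval -0.30 to 0.25, edgeR adjusted p 0.961). IER2 (ENSG00000160888, chromosome 19, 13150415 to 13154908), a nuclear immediate early protein, had 9.16 and 10.4 FPKM in TCN1_OE, against 10.1 and 8.43 FPKM in NC, at 0.068 ± 0.14 (95% interval -0.24 to 0.38, edgeR adjusted p 0.887). In IER2 30.8% of the exonic bases overlap exons of AC011446.2, so some of its counts are uncertain too.

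Promoters from RefSeq (GRCh38.p14) matched 9 of the 10 genes, all but FOSL1. The 250 bases before the start were searched on both strands for TGANTCA (the AP-1 site), TGACGTCA (the cyclic AMP response element), the CArG box bound by serum response factor, GCGTGGGCG (an EGR1 site) and CCGGAAG (an ETS-type site), none of which contains another. Among 35116 promoters these occurred in 6.57%, 1.65%, 1.16%, 0.72% and 8.52%. Of the 9 genes, TGACGTCA occurred in JUND, the CArG box in EGR1 and CCGGAAG in IER2, while TGANTCA and GCGTGGGCG occurred in none. The windows of EGR1 at chr5:138465350-138465429 (plus strand, 129 to 50 bases before the start) and of JUND at chr19:18281779-18281858 (minus strand, 236 to 157 bases before the start) are given because they set the member with the fold change closest to 0 beside the JUN gene with the largest. Capitals mark the matches.
EGR1: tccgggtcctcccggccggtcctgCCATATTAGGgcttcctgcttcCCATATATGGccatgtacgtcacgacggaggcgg
JUND: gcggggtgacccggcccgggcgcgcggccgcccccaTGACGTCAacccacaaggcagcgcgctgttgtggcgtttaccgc
Within the 250 bases EGR1 holds 2 CArG boxes, at 105 and 83 bases before the start. A match is a run of letters and does not show that a factor binds there. Sites farther upstream, or that differ from these patterns, were not searched, so no match does not mean that a gene lacks such a site.

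Of the other immediate early genes, 32 of 33 were listed and 26 were tested, and 1 rose. This was BTG2, an antiproliferative gene that is also a p53 target, with 47.1 and 48.6 FPKM in TCN1_OE, against 33.4 and 31.1 FPKM in NC, at 0.57 ± 0.09 on the log2 scale (edgeR adjusted p 0.0444). DESeq2 called the same gene, against 1.83% of all genes it adjusted. Limma called none of the list, with an adjusted p of 0.171 for BTG2, and 1 gene over all genes. The list had 17 positive and 9 negative members and a median log2 fold change of 0.031, near the 0.0016 of all genes tested. Before adjustment 4 of the 26 were higher and 2 lower with a p under 0.05, against 6.00% and 6.81% of all genes tested, and the 1 called stands beside 0.285% called higher over all genes. The next genes by p were PHLDA1, a pleckstrin homology protein gene, at -0.40 ± 0.11, SGK1, a serum-inducible kinase gene, at 0.38 ± 0.11, and RHOB, a small GTPase gene, at 0.41 ± 0.17, with edgeR adjusted p of 0.151, 0.171 and 0.351.

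The factors and kinases that act on immediate early genes had no called member, where 0.496% of all genes tested were called, so a count of 0 in lists of this size is near the background. At an unadjusted p under 0.05 the share over all genes was 12.8%. Of the regulators, which include serum response factor SRF and its partners ELK1, ELK3 and ELK4, 14 were tested and 0 were called by edgeR, DESeq2 or limma, with 0 at an unadjusted p under 0.05. Their log2 fold changes ran from -0.14 to 0.17, with MEF2A at 0.17 ± 0.09, ELK4 at 0.15 ± 0.10, ETS2 at 0.15 ± 0.10 and ELK3 at -0.14 ± 0.12. Of the MAP kinases and neighbouring kinases 25 were tested, and 0 were called by the 3 tools, with 1 higher and 1 lower at an unadjusted p under 0.05. These were the p38 delta gene MAPK13 at 0.23 ± 0.09 and the JNK2 gene MAPK9 at -0.29 ± 0.11. RPS6KA5 and MAP2K4 followed at 0.26 ± 0.12 and -0.21 ± 0.11. Of the other bZIP genes that can pair with AP-1 subunits 11 were tested, again with 0 called by the 3 tools and 0 at an unadjusted p under 0.05, and MAFF, ATF2, DDIT3 and ATF7 stood at 0.30 ± 0.19, 0.18 ± 0.12, 0.48 ± 0.32 and 0.20 ± 0.14.

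ERK feedback genes, which encode the phosphatases, Sprouty and SPRED inhibitors and ETS factors that ERK signalling induces, lay mostly on the same side as FOSL1. Of the 12 tested, 9 were negative with a median log2 fold change of -0.38, beside 0.0016 over all genes tested. None was called by edgeR, and 6 were lower and 1 higher at an unadjusted p under 0.05, against 6.81% and 6.00% of all genes tested. DESeq2 called 1, DUSP4, against 1.83% of all genes it adjusted. Limma called 0 of the list, and 1 gene over all genes. DUSP4, an ERK phosphatase gene, had 2.59 and 2.80 FPKM in TCN1_OE, against 4.14 and 4.64 FPKM in NC, at -0.70 ± 0.14 (edgeR adjusted p 0.0568). The inhibitor gene SPRED2 had 5.66 and 5.97 FPKM in TCN1_OE, against 7.55 and 8.02 FPKM in NC, at -0.42 ± 0.12 (edgeR adjusted p 0.166). The ETS factor genes ETV4 and ETV5 stood at -0.64 ± 0.19 and -1.22 ± 0.33 (edgeR adjusted p 0.187 and 0.161). ETV5 was low, with 40 and 19 counts in TCN1_OE, against 93 and 46 in NC. SPRED3 and DUSP5, named because they lay on the other side, stood at 1.02 ± 0.43 and 0.44 ± 0.23. SPRED3, the 1 higher before adjustment, had 25 and 28 counts in TCN1_OE, against 15 and 11 in NC. DUSP6 and SPRY2, named after their values were seen as the best known of these feedback genes, stood at -0.18 ± 0.11 and 0.035 ± 0.19.

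**Figure D5:**
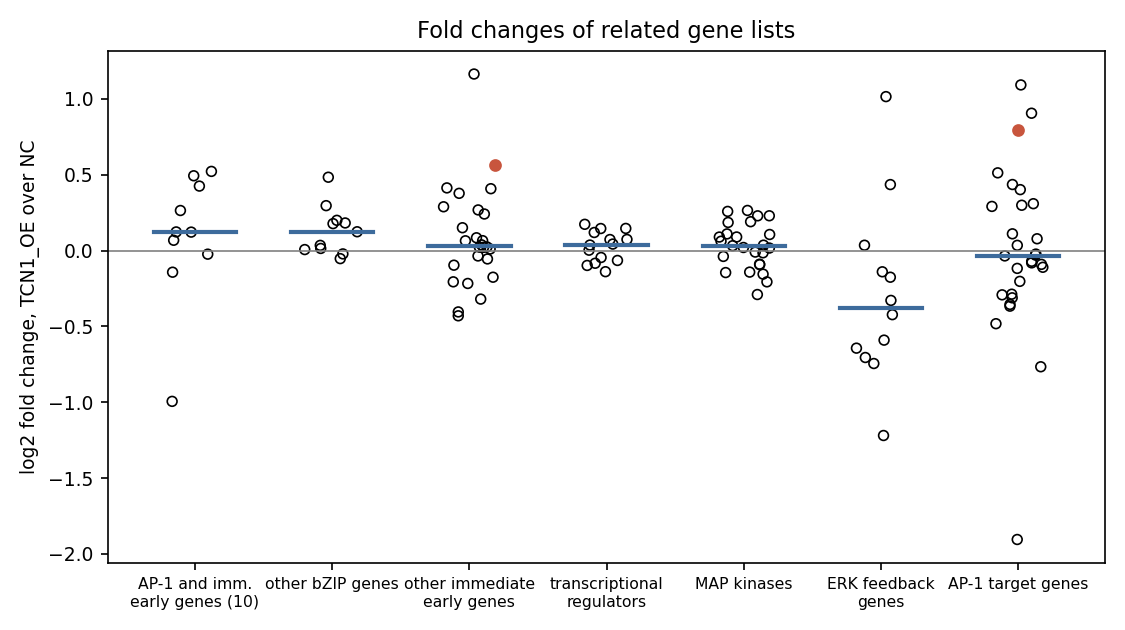
Log2 fold change, TCN1_OE over NC, of each tested gene in the 10 described here and in 6 related lists, with the list median as a horizontal bar and filled points for genes called by edgeR at an adjusted p under 0.05. The filled points are BTG2 at 0.57 and SPRR1B at 0.80, and the ERK feedback list has the lowest median, -0.38.

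Genes known as AP-1 targets in keratinocytes and other epithelial cells lay on both sides of 0. Of 29 tested, 12 were positive and 17 negative, with a median log2 fold change of -0.035. Before adjustment 7 were higher and 3 lower with a p under 0.05, against 6.00% and 6.81% of all genes tested. One of the 29 rose, against 0.285% of all genes tested. This was SPRR1B, a cornified envelope precursor gene, with 60.2 and 55.1 FPKM in TCN1_OE, against 31.5 and 34.8 FPKM in NC, at 0.80 ± 0.13 with an edgeR adjusted p of 0.0431 and a limma adjusted p of 0.116. The collagenase genes MMP13 and MMP1 stood at 0.51 ± 0.10 and 0.40 ± 0.11, with edgeR adjusted p of 0.0638 and 0.181. IL1A, an epidermal alarmin gene, had 0.418 and 0.538 FPKM in TCN1_OE, against 1.34 and 2.31 FPKM in NC, at -1.91 ± 0.40 (edgeR adjusted p 0.0765). DESeq2 called SPRR1B, MMP13 and IL1A, against 1.83% of all genes it adjusted. Limma called none of the list, and 1 gene over all genes.

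Among 6687 other genes at a mean level of 5 FPKM or more, those whose profile over the 4 libraries was most like that of FOSL1 were KRT81, SRM, TNFRSF12A, URB2 and UPP1, by the Euclidean distance of centred log2 counts, scaled in the same way. KRT81, a hair keratin gene with close paralogs, was nearest at 0.10, with 10.5 and 12.8 FPKM in TCN1_OE, against 22.5 and 23.9 FPKM in NC. The distances of the other 4 were 0.25 for SRM, the spermidine synthase gene, 0.26 for TNFRSF12A, the receptor of the cytokine TWEAK, 0.26 for the ribosome assembly gene URB2 and 0.30 for the uridine phosphorylase gene UPP1. Their log2 fold changes lay between -0.80 and -0.72. Because the 5 genes were picked by likeness to FOSL1 in these same libraries, a lower level in TCN1_OE follows from the choice. KRT81 and URB2 passed edgeR, with adjusted p of 0.0208 and 0.0418, where 0.212% of all genes tested were called lower. Neither passed limma, at 0.116 and 0.171. These calls are no separate support for the difference in FOSL1.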

How the data were processed

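PolyA RNA of 2 TCN1_OE and 2 NC libraries was measured by sequencing, with groups and replicate numbers taken from the sample titles. Per the labels' protocols the kit was NEBNext Ultra RNA, and per the submitters' processing notes HISAT2 and HTSeq 0.13.5 were used on GRCh38. The sources used here do not give the HISAT2 version, the annotation release or the strand setting. The deposited raw count per gene was tested. The FPKM values were made by the authors from these counts: count over FPKM over library total gave a whole gene length in 100% of values above 0 (tolerance 0.001 bp). All rows name a gene, and totals are sums of listed counts. The counting errors given in percent cover the sampling of counts only, whereas the 95% intervals come from the edgeR fit and include the spread between libraries.

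Counts were tested with edgeR 4.0.16 (quasi-likelihood, TMM, robust, group as the only term) in R 4.3.3. Genes were kept by filterByExpr with a minimum count of 10, which left 15113 genes, with Benjamini-Hochberg adjustment over all of them (threshold 0.05). The standard error is the log2 fold change over the square root of F. Alternatives were DESeq2 1.42.0, limma 3.58.1 on log2(FPKM + 0.1, 0.5 or 1) for genes averaging 1 FPKM or more, other scalings and filters, a replicate block and leaving out each library. The chi-square per degree of freedom between libraries of a group was 8.45 in TCN1_OE and 8.15 in NC, so no 2 libraries agreed within counting noise and none was merged. This does not show that they are separate cultures. The edgeR step was tested on simulated data. The members and lists were chosen with earlier results of these data known. All 10 members were named, and of each list those called and otherwise up to 4 with the smallest p. List genes without a row (IER3, MEF2D, SPRR3 and 7 cell type markers) were not analysed here.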

Additional observations from a re-analysis of the deposited data

How the results depend on the processing

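Over 9 alternatives the difference of the FOSL1 ratio ran from -1.45 to -1.10 for FOSL2 and from -1.28 to -1.04 for the JUN sum. It was negative for these and for JUN, JUNB and JUND in each. Because the groups did not overlap, leaving out a library or comparing within a replicate number could not change this sign. The log2 fold change of FOSL1 stayed between -1.23 and -0.79 in 14 alternatives. It passed the threshold at -0.99 with library totals only (edgeR adjusted p 0.0362) and at -1.01 without a filter on low counts (5.4e-05). It also passed at -0.99 with DESeq2 (0.0038) and at -1.01 with the replicate block. Leaving out 1 library gave -1.23 to -0.79, in fits that called more genes than the fit to all libraries. The adjusted p ran from 5.0e-07 to 0.175. The number of genes called moved with the method, from 43 higher and 32 lower to 69 and 63 with library totals only, 200 and 275 without the filter, 110 and 113 with DESeq2, and 1 and 0 with limma at each pseudocount. Leaving out 1 library gave 104 to 188 higher and 106 to 142 lower genes, and a mean of at least 1 FPKM gave 14 lower genes. The cause was not tested.

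The replicate block gave 1216 higher and 1655 lower genes and called FOSL1, and also FOSL2, FOS, JUNB and JUND. The differences of replicate 1 and 2 correlated over genes at 0.15 between the groups. The labels do not say that a number marks a shared batch, and with 2 pairs whether it does was not settled, so the fit without the block was kept. That no member was called by edgeR depends on this choice. Direction was unstable near 0 when 1 library was left out: JUN ran from -0.33 to 0.047 (positive without NC replicate 2), JUNB from -0.047 (without TCN1_OE replicate 2) to 0.27, EGR1 from -0.16 to 0.11 (0.016 without TCN1_OE replicate 1 and 0.11 without NC replicate 2) and IER2 from -0.046 to 0.20 (-0.041 without TCN1_OE replicate 2 and -0.046 without NC replicate 2). BTG2, SPRR1B, KRT81 and URB2 were called in 11 of 14 alternatives each, all but the 3 limma fits. FOSB, with a mean under 1 FPKM, was not in the fits limited to 1 FPKM. Where a group was left with 1 library, it was assumed to vary like the other group. Counting error was largest for FOSB, ATF3 and FOS, with 25 counts at the least.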

Other observations

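Libraries with the same replicate number lay on the same side of their group mean for 8 of the 10 genes. FOSL1, FOSL2, JUN, JUNB, JUND and EGR1 were higher in replicate 2 in both groups, and FOSB and ATF3 in replicate 1 in both. Over the 15113 genes tested the share with the same side was 66.9%. FOSL1 was lower in TCN1_OE within each number, by -1.14 between the libraries numbered 1 and -0.86 between those numbered 2 on the log2 scale. This direction follows from the groups of FOSL1 not overlapping and is no separate support. The median gap between the libraries of a group over the 10 genes was 0.23 on the log2 scale in both TCN1_OE and NC, beside 0.18 in each group over all genes tested.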
